A study of Homo sapiens with 12 samples.

Results

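The genes described here are 5 metallothionein genes (MT2A, MT1X, MT1G, MT1E and MT1F) and MTF1, the gene for the transcription factor that activates them, 6 of the 38478 genes in the deposited expression table. They were listed by name for a large rise with the RUNX inhibitor AI-10-104 relative to DMSO, so the values of that contrast chose them and are given as a description only. Polyadenylated RNA was sequenced from 12 samples of OPM-1, a cell line derived from human multiple myeloma, in 4 groups of 3 biological replicates. Over 48 h the groups received the solvent DMSO, lenalidomide at 0.1 μM (LEN), AI-10-104 at 1 μM, or both drugs at those doses (LEN+AI-10-104). Lenalidomide directs the ubiquitin ligase substrate receptor cereblon to the lymphoid transcription factors IKZF1 and IKZF3, and AI-10-104 keeps RUNX proteins from their partner CBFβ. All groups are of 1 cell line at 1 dose of each drug and 1 time, and bulk RNA cannot tell fewer expressing cells from less RNA per cell.

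Metallothioneins are small cysteine-rich proteins that hold zinc and copper ions and also take up toxic metals such as cadmium. When free zinc rises, the zinc fingers of MTF1 load the metal and the protein binds metal response elements, short repeats in the promoters of the metallothionein genes and of a few zinc transport genes. Metallothionein genes are also known to respond to glucocorticoids and to oxidative stress.

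In GENCODE 44 on GRCh38, the metallothionein genes lie side by side in a cluster on chromosome 16 that holds 15 of the 16 metallothionein rows of the table, from MT4 at 56565073 to the end of MT1X at 56684196. MT2A runs from 56608584 to 56609497, MT1E from 56625475 to 56627112, MT1F from 56657731 to 56660698 and MT1X from 56682470 to 56684196, all on the plus strand. MT1G runs on the minus strand from 56666730 to 56668065. MTF1 lies on another chromosome, chromosome 1, from 37809574 to 37859592 on the minus strand.

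The promoters of MT2A and MT1X, the metallothionein genes with the most reads, are shown because they hold the letters that MTF1 is known to recognise. Each is the 250 bases before the gene's start in RefSeq (GRCh38.p14), chr16:56608334-56608583 for MT2A and chr16:56682220-56682469 for MT1X, both on the plus strand. Capitals mark each match, on either strand, to the core of the metal response element, searched as TGCACNC or TGCGCNC, of which no match overlaps another.
MT2A: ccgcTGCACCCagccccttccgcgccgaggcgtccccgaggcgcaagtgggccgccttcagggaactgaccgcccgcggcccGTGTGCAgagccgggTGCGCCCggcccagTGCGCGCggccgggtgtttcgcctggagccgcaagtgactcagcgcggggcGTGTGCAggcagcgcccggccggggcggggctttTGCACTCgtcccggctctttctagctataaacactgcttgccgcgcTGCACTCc
MT1X: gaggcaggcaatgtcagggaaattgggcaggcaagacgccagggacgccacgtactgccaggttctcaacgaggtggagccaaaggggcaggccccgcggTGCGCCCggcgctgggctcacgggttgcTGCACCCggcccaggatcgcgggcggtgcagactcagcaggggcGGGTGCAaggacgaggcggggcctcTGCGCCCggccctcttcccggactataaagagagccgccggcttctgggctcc
The MT2A promoter held 7 matches, 5 to TGCACNC and 2 to TGCGCNC, and 0.0313% of the 35116 promoters of this length held at least as many. The MT1X promoter held 4 matches, a number reached by 0.37% of the promoters. A single match was common, being present in 24.8% of the promoters, and the promoter of MTF1 itself held 0. The core letters of RUNX sites, searched as TGTGGT or TGCGGT on both strands, were found in 16.3% of the promoters and not within these 250 bases of MT2A, MT1X or MTF1, which describes this window alone. Of the 6 genes, 3 had a promoter in the table of sequences used here.

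Reads counted on genes, computed back from the deposited RPKM, which scale reads by the length of the gene and the depth of the library, came to between 16352548 and 31386210 per sample. All 10 plasma cell markers listed, such as SDC1 and JCHAIN, were at mean levels of 22.9 to 3285 RPKM. None of the markers listed for T cells, myeloid, stromal or epithelial cells reached a mean of 0.5 RPKM, and CD3D, S100A8, S100A9, COL1A2, PDGFRB, EPCAM, KRT19 and CDH1 were at 0 reads throughout. Of the erythroid markers, HBB alone reached a mean of 0.5 RPKM, with the list summing to 18.3 to 23.0 RPKM over all samples, and HBA2 was at 0. The 11241 genes that averaged 0.5 RPKM or more were compared with limma on log2(RPKM + 0.1). A gene was called at an adjusted p of at most 0.05 and a log2 fold change of at least 0.32 in either direction. Among the 6 genes, 4 passed this filter (MT2A, MT1X, MT1G and MTF1), and MT1G passed it through its level in the samples with AI-10-104.

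**Figure D1:**
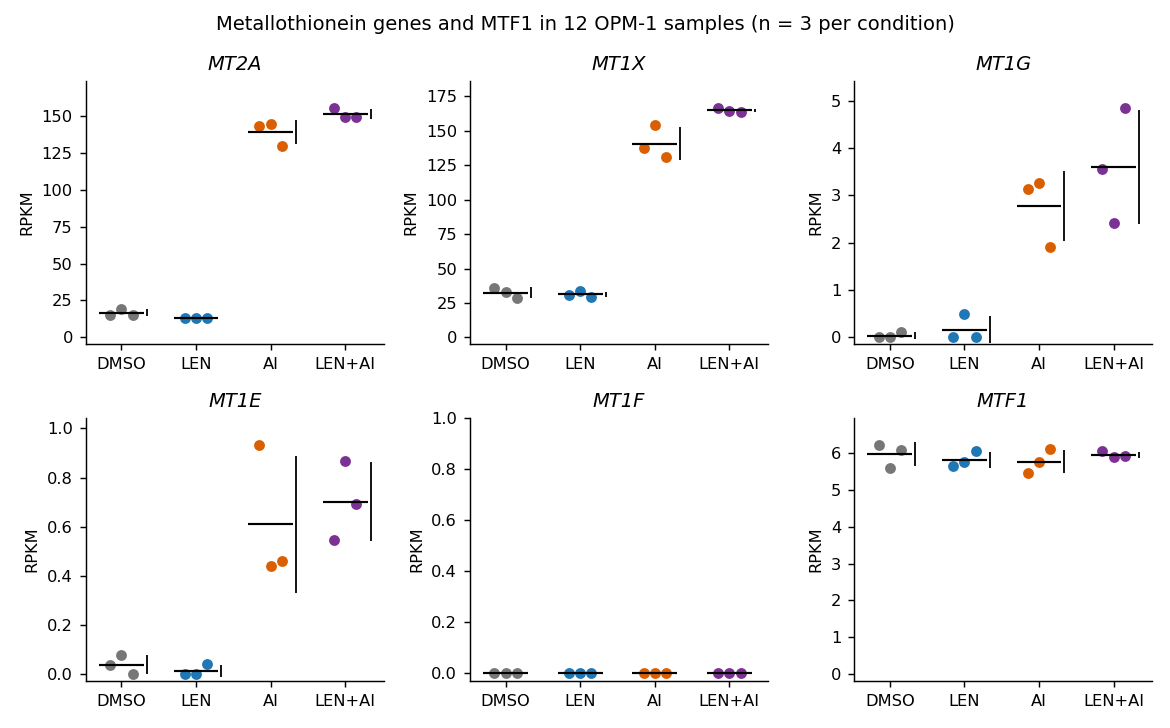
Expression of the 5 metallothionein genes and MTF1 in RPKM (vertical axes, each starting at about 0) in the 12 OPM-1 samples, grouped by treatment with AI standing for AI-10-104. Points are samples, horizontal lines the means and vertical bars ± 1 SD over 3 replicates. MT2A, MT1X, MT1G and MT1E were higher in every AI-10-104 sample than in every DMSO sample, as were 13.1% of all genes tested. They were also higher in every LEN+AI-10-104 sample than in every LEN sample, as were 15.9%. MT1F was at 0 throughout, and MTF1 stayed between 5.46 and 6.21 RPKM.

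MT2A, the most widely expressed human metallothionein, was measured at 15.4, 19.3 and 15.5 RPKM in the DMSO samples and at 13.1, 12.9 and 13.1 RPKM in the LEN samples. With AI-10-104 alone the values were 143, 144 and 130 RPKM, and with LEN+AI-10-104 they were 155, 149 and 149 RPKM. The samples therefore fell into a low set without the inhibitor and a high set with it, and the 2 sets did not overlap. How many of all genes tested split in this way was not counted, so nothing is read from the split here or below. Ranked by mean RPKM among the 38478 genes, MT2A moved from place 3706 in DMSO to place 395 with AI-10-104, and from place 4430 in LEN to place 355 in the combination.

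MT1X, the other abundant metallothionein, started at a higher level in RPKM than MT2A. Its values were 36.0, 32.7 and 28.2 RPKM in DMSO and 30.9, 33.4 and 29.5 RPKM in LEN, ranges that overlap. They were 137, 154 and 131 RPKM with AI-10-104 and 166, 165 and 164 RPKM with LEN+AI-10-104. Each sample with the inhibitor was thus more than any sample without it, and each combination sample was above each sample with the inhibitor alone. The combination samples differed little among themselves, with a coefficient of variation of 0.765%. Counting alone would give 2.83% at their mean number of reads per sample (3742 reads in the group). The small SD of this group is therefore not a measure of the error of a single sample.

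MT1G, a further gene of the MT1 group, was close to undetected without the inhibitor. The DMSO samples held 0, 0 and 1 reads and the LEN samples 0, 6 and 0 reads. The counts were 29, 39 and 18 reads with AI-10-104 and 28, 16 and 40 reads with LEN+AI-10-104, or 1.92 to 3.26 and 2.42 to 4.84 RPKM. MT1G therefore appeared in all samples with the inhibitor, at levels far below those of MT2A. MT1E rested on fewer reads still, 1, 2 and 0 in DMSO, 0, 0 and 1 in LEN, 18, 11 and 9 with AI-10-104 and 9, 12 and 12 with LEN+AI-10-104. Its mean over the 12 samples was 0.341 RPKM, under the filter, and its groups with and without the inhibitor did not overlap.

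MT1F had 0 reads in each of the 12 samples. A count of 0 allows up to 3 reads, or 0.198 to 0.38 RPKM in a single sample and 0.0212 RPKM over all samples together, as far as counting error goes. A gene listed at 0 is not shown to be without RNA, since genes in wide use, such as SLC39A7, a zinc transporter, and HSPA1A, a heat shock gene, are also listed at 0 in every sample. Among the 11 metallothionein rows that are not in the set, 10 were also listed at 0 reads throughout (MT1A, MT1B, MT1DP, MT1H, MT1IP, MT1JP, MT1L, MT1M, MT3 and MT4), and MT1HL1 had 1 read in 1 sample. For MT1DP and MT1L, 100% of the 50-base and of the 75-base windows of their transcripts are also in another gene, and for MT1IP 64.7% and 56.5%. Reads of the family were thus listed on MT2A and MT1X, with few on MT1G and MT1E.

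These genes are close relatives, and part of their reads could be placed on more than 1 of them. In GENCODE transcripts, 4.48% of the 50-base windows of MT2A, 18.7% of MT1X, 16.4% of MT1G, 7.10% of MT1E and 1.24% of MT1F were also found in another gene. At 75 bases the shares were 0%, 14.7%, 5.72%, 1.42% and 0%, with MT1G and MT1X sharing sequence with each other. At both sizes MT1X also shared windows with ENSG00000259827, a gene outside the set. The windows cover all GENCODE transcripts, whose exons span 1727 bases for MT1X and 914 for MT2A. The gene lengths used for the RPKM were shorter, 404 and 419 bases. Shares within the counted sequence were not measured and may be higher. How reads of more than 1 place were counted, and their length, are not given in the sources used here, so the values of MT1X, MT1G and MT1E are less certain as those of single genes than the value of MT2A.

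MTF1, the zinc-sensing activator, gave a different picture, and goes against the description of the set as genes with a large rise. Its values were 6.21, 5.61 and 6.08 RPKM in DMSO, 5.64, 5.75 and 6.05 RPKM in LEN, 5.46, 5.75 and 6.10 RPKM with AI-10-104 and 6.05, 5.88 and 5.92 RPKM with LEN+AI-10-104. The 4 groups overlapped throughout, with means of 5.77 to 5.97 RPKM. These levels rest on 855 to 1733 reads per sample, more than any of the metallothioneins had in a sample without the inhibitor.

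In AI-10-104 relative to DMSO, the contrast by which the genes were chosen, MT2A was 8.32-fold higher (log2 fold change 3.06) and MT1X 4.36-fold higher (2.12). MT1G had 86 reads against 1, a depth-scaled ratio of 94.5 with an exact 95% counting interval of 16.5 to 3775. MT1E had 38 reads against 3, a ratio of 13.9 with an interval of 4.42 to 70.5. MTF1 had a log2 fold change of -0.05 (95% interval -0.16 to 0.07). By the rule for calls 3 of the 4 genes tested were higher and 0 lower, beside 0.685% and 1.09% of all genes tested. Every sample with AI-10-104 was above every DMSO sample for 4 of the 6 genes, beside 13.1% of all genes tested, and nothing is read from either count.

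**Figure D2:**
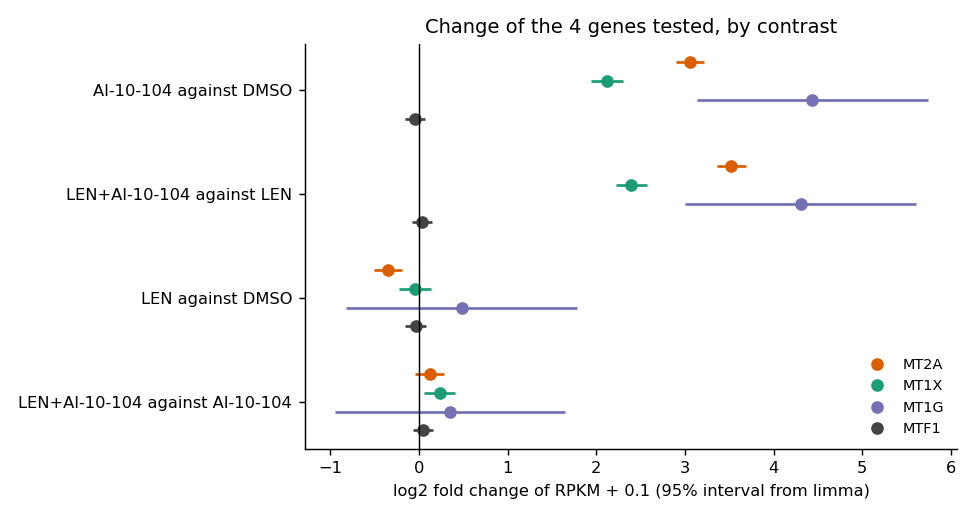
Log2 fold change of RPKM + 0.1 (horizontal axis) for MT2A, MT1X, MT1G and MTF1 in 4 contrasts (vertical axis). Points are limma estimates over 3 samples per condition and lines their 95% intervals, where the intervals of MT2A and MT1X in LEN+AI-10-104 against LEN lie far to the right of 0 and those of MTF1 cross 0 in all 4 contrasts.

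Whether the genes were also higher when the inhibitor was given on top of lenalidomide was asked of LEN+AI-10-104 relative to LEN, whose 6 samples are not those of AI-10-104 relative to DMSO. The genes were listed with results of all conditions known, so this contrast is not independent support for their choice. MT2A rose 11.5-fold in the combination (log2 fold change 3.52, standard error 0.07, 95% interval 3.36 to 3.68, adjusted p = 1.1e-10 from limma). MT1X rose 5.27-fold (log2 fold change 2.40, standard error 0.08, 95% interval 2.22 to 2.58, adjusted p = 1.6e-08 from limma). The increase of MT2A was larger than that of MT1X, with intervals that do not overlap. By size of increase they held places 4 and 9 among the 11241 genes tested.

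MT1G had 84 reads in the combination against 6 in LEN, a depth-scaled ratio of 19.6 with an exact 95% counting interval of 8.64 to 55.0. It passed the rule for calls in limma (log2 fold change 4.31, standard error 0.60, adjusted p = 0.0018), but it reached the filter through the samples with AI-10-104 alone and so had to differ, and its call is given as a description. All 6 reads of the LEN group came from LEN replicate 2, and without that sample the estimate was 5.16, a value that depends on the pseudocount because the remaining LEN samples are at 0. MT1E had 33 reads against 1, a ratio of 46.2 with an interval of 7.74 to 1881, and was called only where no filter on low values was applied (log2 fold change 2.82, adjusted p = 0.0018 from limma). These intervals and the limits given for counts of 0 reflect the error of counting alone, because no molecular identifiers are named for these libraries and reads of 1 molecule cannot be told apart.

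MTF1 differed between the combination and LEN by 0.03 on the log2 scale (standard error 0.05, adjusted p = 0.76 from limma), with a 95% interval of -0.08 to 0.15 that leaves room for a rise of at most 1.11-fold. MT2A and MT1X were thus called higher, 3 of the 6 genes if MT1G is counted, and 0 lower in this contrast, where 0.872% of all genes tested were called higher and 0.81% lower. Every combination sample was above every LEN sample for MT2A, MT1X, MT1G and MT1E, which held for 15.9% of all genes tested.

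**Figure D3:**
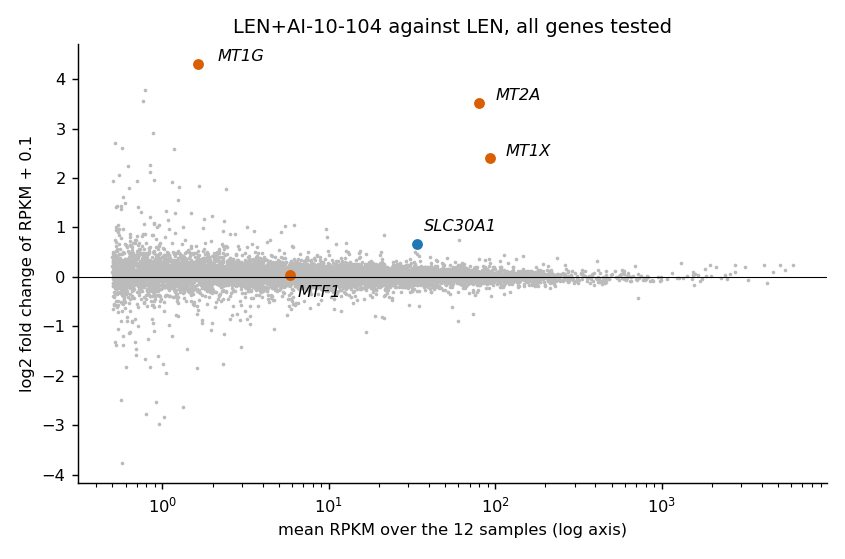
Log2 fold change of RPKM + 0.1 in LEN+AI-10-104 relative to LEN (vertical axis) against mean RPKM over the 12 samples (horizontal log axis) for the 11241 genes tested, 1 grey point each. MT2A and MT1X stand at 3.52 and 2.40 at mean levels of 80.0 and 92.3 RPKM, MT1G at 4.31 at a low level, SLC30A1 at 0.67, and MTF1 near 0.

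Lenalidomide alone was compared with DMSO, in a contrast that shares its DMSO samples with the one that chose the genes. MT2A was lower in every LEN sample than in every DMSO sample, with a log2 fold change of -0.35 (95% interval -0.51 to -0.19, adjusted p = 0.049 from limma), just past the threshold. The coefficient of variation of its LEN samples was 0.874%. Counting alone would give 8.35% at their mean number of reads per sample (430 reads in the group), so their close values do not measure the error of a single sample. MT1X changed by -0.04 (95% interval -0.22 to 0.14, adjusted p = 0.93), MTF1 by -0.04 (95% interval -0.15 to 0.08, adjusted p = 0.90), and MT1G, on 6 reads against 1, by 0.48 (adjusted p = 0.88), all from limma. Thus 1 of the 6 genes was called lower and 0 higher, beside 0.0623% and 0.587% of all genes tested, and separation of all LEN samples below all DMSO samples was seen for 7.03% of them. The call of MT2A did not hold under most other settings. Leaving out DMSO replicate 2, its highest DMSO sample, gave a log2 fold change of -0.24 and an adjusted p of 0.056 in limma, and across 12 fits that each left out 1 of the 12 samples the adjusted p ran from 0.043 to 0.17 with 1 call.

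Adding lenalidomide to the inhibitor was examined in LEN+AI-10-104 relative to AI-10-104, which shares the AI-10-104 samples with the contrast of choice. MT2A was 1.09-fold as high (log2 fold change 0.12, 95% interval -0.04 to 0.28, adjusted p = 0.28 from limma). MT1X was 1.17-fold as high (log2 fold change 0.23, 95% interval 0.05 to 0.41, adjusted p = 0.076 from limma), an interval that holds increases of up to 1.33-fold. For both genes every combination sample was above every AI-10-104 sample, a separation seen in 19% of all genes tested. MT1G (84 and 86 reads, ratio 1.31 with a counting interval of 0.959 to 1.79) and MT1E (33 and 38 reads, ratio 1.17 with an interval of 0.709 to 1.91) overlapped between the groups, and MTF1 differed by 0.04 (adjusted p = 0.59 from limma). None of the genes was called by limma, with 1 of the 4 tested at an unadjusted p under 0.05 and 0 called by voom on the reads, where 3.16% of all genes tested were called higher and 0.471% lower. For MT1X the adjusted p ran from 0.013 with voom to 0.24 in limma over the alternatives. Its log2 fold changes there, 0.18 to 0.30, stayed below the fold required.

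The effect of the inhibitor was compared between cells with and without lenalidomide as the difference of its log2 fold changes. It was 0.47 larger with lenalidomide for MT2A (95% interval 0.24 to 0.69) and 0.27 larger for MT1X (95% interval 0.02 to 0.53), while the values for MT1G (-0.13, 95% interval -1.97 to 1.71) and MTF1 (0.08, 95% interval -0.08 to 0.25) spanned 0. These values contain the contrast that chose the genes and are a description. None was called over all genes tested (adjusted p = 0.28 for MT2A and 0.33 for MT1X from limma), so the effect was not shown to differ.

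The sum of the 5 metallothionein genes depends less on how reads were divided among them than single values do. Reads dropped or placed on genes outside the 5, such as ENSG00000259827 or the pseudogene MT1XP1, would still change the sum. The sum came to 51.5, 52.0 and 43.8 RPKM in DMSO, 44.1, 46.8 and 42.6 RPKM in LEN, 285, 302 and 263 RPKM with AI-10-104 and 325, 317 and 318 RPKM with LEN+AI-10-104. The means were 49.1 ± 4.60, 44.5 ± 2.11, 283 ± 19.4 and 320 ± 4.53 RPKM (SD, n = 3 each), in that order. The sum was thus 5.77 times as high with AI-10-104 as in DMSO and 7.20 times as high in the combination as in LEN. It was 0.906 times as high in LEN as in DMSO, with overlapping samples, and 1.13 times as high in the combination as with AI-10-104 alone, without overlap. Counted as reads, the 5 genes took 20.1 ± 1.89, 18.2 ± 0.845, 117 ± 7.94 and 132 ± 1.82 of every 1000000 reads on genes in the same order (SD, n = 3 each).

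The make-up of the sum moved with the inhibitor. MT1X supplied 65.7% of it in DMSO and 70.2% in LEN, and MT2A 34.1% and 29.4%. With AI-10-104 their shares were 49.6% and 49.2%, and in the combination 51.5% and 47.2%, while MT1G and MT1E together stayed below 2% in every sample. The ratio of MT2A to MT1X was 0.522 ± 0.0837 in DMSO, 0.419 ± 0.0290 in LEN, 0.991 ± 0.0528 with AI-10-104 and 0.917 ± 0.0143 with both drugs (SD over 3 replicates). Every sample with the inhibitor was at 0.907 or above and every sample without it at 0.590 or below, and 3 samples against 3 cannot give an exact two-sided permutation p below 0.1.

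**Figure D4:**
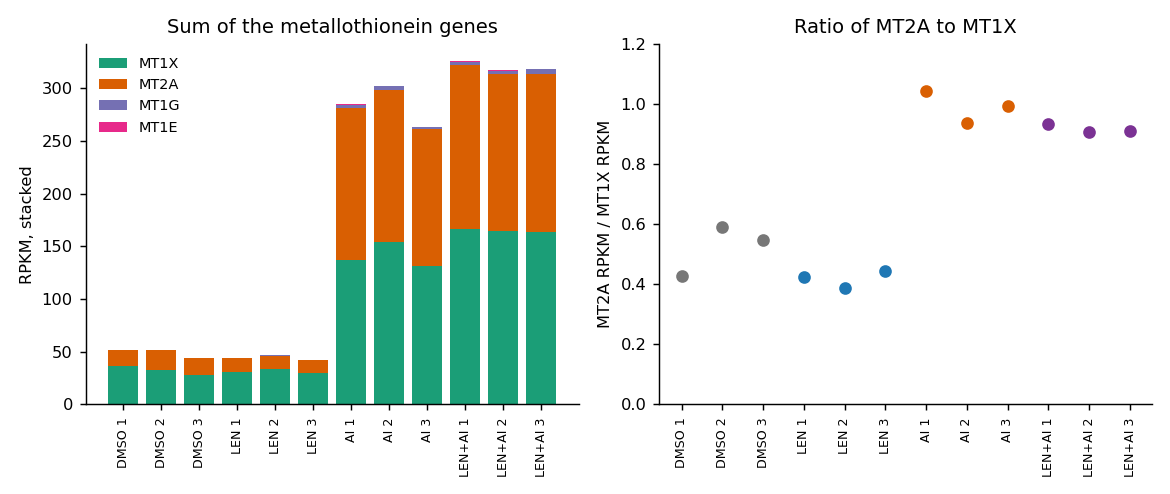
Left, summed RPKM of the metallothionein genes in each of the 12 samples (vertical axis), stacked by gene, with AI standing for AI-10-104. Right, the ratio of MT2A to MT1X RPKM in the same samples, which lies between 0.387 and 0.590 without the inhibitor and between 0.907 and 1.04 with it.

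Other genes that MTF1 is known to regulate were read from a list of 10, of which 7 were tested, as the first of several lists. Over all lists and the chromosome 16 neighbours, 3 of 60 different genes tested were called higher in LEN+AI-10-104 relative to LEN and 2 lower, beside the 0.872% and 0.81% of all genes tested. Of the MTF1 targets, 1 was called higher and 0 lower, with a median log2 fold change of 0.07 beside 0.02 over all genes tested. The gene called was SLC30A1, which encodes the zinc exporter ZnT1 of the plasma membrane. It was measured at 26.4, 27.7 and 25.9 RPKM in DMSO, 25.6, 27.7 and 25.1 RPKM in LEN, 39.4, 40.9 and 43.6 RPKM with AI-10-104 and 40.0, 43.2 and 41.6 RPKM in the combination. As for MT2A and MT1X, every AI-10-104 sample was above every DMSO sample and every combination sample was above every LEN sample. These separations were seen in 13.1% and 15.9% of all genes tested. SLC30A1 rose by 0.67 on the log2 scale in the combination relative to LEN (standard error 0.05, 95% interval 0.56 to 0.78, adjusted p = 1.5e-05 from limma). It differed by -0.03 between LEN and DMSO and by 0.01 between the combination and AI-10-104, with adjusted p-values of 0.92 and 0.90 from limma. Its promoter held 1 match to the metal response core and 0 to the RUNX letters.

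The other 6 listed targets did not pass the rule for calls in that contrast. SLC39A10, a zinc importer, had a log2 fold change of 0.17, with an adjusted p of 0.030 from limma but below the fold required. The values were 0.13 for GCLC, the catalytic subunit of glutathione synthesis, 0.07 for TXNRD2, -0.01 for the selenoprotein gene SEPW1, -0.04 for CSRP1 and -0.38 for NDRG1, whose mean was under 1 RPKM in each condition, with adjusted p-values of 0.15 to 0.94 from limma. SLC40A1 (ferroportin), HAMP (hepcidin) and PGF were at 0 in all conditions.

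Among 15 zinc transporters tested, of the SLC30 exporters and SLC39 importers, SLC30A1 was likewise the 1 called higher in the combination relative to LEN. None were called lower, where 0.872% of all genes tested were called higher and 0.81% lower. The median of the 15 was 0.04, and the other 14 lay between -0.12 and 0.26. Of 9 genes of copper handling, 0 were called higher and 1 lower, ATP7A, a copper exporter, with a log2 fold change of -0.41 (adjusted p = 0.00041 from limma). In the combination relative to AI-10-104, 2 of the 60 listed genes were called higher and 0 lower, beside 3.16% and 0.471% of all genes tested. CCS, the copper chaperone of superoxide dismutase, was the first of these, at 0.40 (adjusted p = 0.0080 from limma). Its means were 14.3 ± 1.04 RPKM in DMSO, 17.2 ± 1.16 in LEN, 11.3 ± 0.676 with AI-10-104 and 14.99 ± 1.28 with both drugs (SD over 3 replicates), so that the combination overlapped DMSO and AI-10-104 alone was lower (log2 fold change -0.33, adjusted p = 0.030 from limma).

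Genes of other inputs that can reach the metallothioneins were read from lists in the same way. Their calls in the combination relative to LEN stand beside 0.872% of all genes tested called higher and 0.81% lower. Of 10 targets of NRF2, the oxidative stress factor, 0 were called higher in the combination relative to LEN and 1 lower, SLC7A11, the cystine transporter, with a log2 fold change of -0.44 (adjusted p = 0.0015 from limma). Of 8 heat shock genes 0 were called by limma, with 0 at an unadjusted p under 0.05 and 0 called by voom, and their log2 fold changes ran from -0.13 to 0.15. Of 8 glucocorticoid targets, 2 were called higher and 0 lower. Those called were TSC22D3 (GILZ, an anti-inflammatory effector) at 0.43 (adjusted p = 0.0028 from limma) and the kinase gene SGK1 at 0.34 (adjusted p = 0.0015 from limma). The log2 fold changes of the 8 ran from -0.26 to 0.43, with a median of -0.09. DDIT4, the other gene called higher in the combination relative to AI-10-104 (0.33, adjusted p = 0.026 from limma), was lower with AI-10-104 than in DMSO (-0.50, adjusted p = 0.0073 from limma). Its means were 80.7 ± 9.27 RPKM in DMSO, 85.3 ± 5.89 in LEN, 56.6 ± 2.43 with AI-10-104 and 71.4 ± 5.94 with both drugs (SD over 3 replicates), where the combination was not above DMSO.

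In LEN relative to DMSO, 0 of the 60 different genes tested from these lists and the list of chromosome 16 neighbours were called by limma, with 10 at an unadjusted p under 0.05 and 0 called by voom. SLC7A11 was lower in every LEN sample than in every DMSO sample, a separation seen in 7.03% of all genes tested. Its log2 fold change there was -0.29 (adjusted p = 0.037 from limma). In the combination relative to AI-10-104 it was -0.27 (adjusted p = 0.013 from limma). These changes were below the fold required.

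Genes that border or overlap the ends of the metallothionein cluster on chromosome 16 were examined to see how far the rise reached. Of the 6 neighbours tested in the combination relative to LEN, 0 were called by limma, with 2 at an unadjusted p under 0.05 and 0 called by voom. BBS2, which overlaps MT4 at 1 end of the cluster, had a log2 fold change of 0.21 (adjusted p = 0.12 from limma). NUP93, the nearest at the other end, had 0.05 (adjusted p = 0.55 from limma). HERPUD1, a gene of the endoplasmic reticulum stress response farther along the chromosome, had 0.20 (adjusted p = 0.0062 from limma), below the fold required. NUDT21, OGFOD1 and NLRC5 had -0.05, -0.04 and 0.13, with adjusted p-values of 0.32 to 0.56 from limma. Within the cluster itself, MT2A, MT1E, MT1G and MT1X were detected, interspersed with 11 metallothionein rows at 0 reads.

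**Figure D5:**
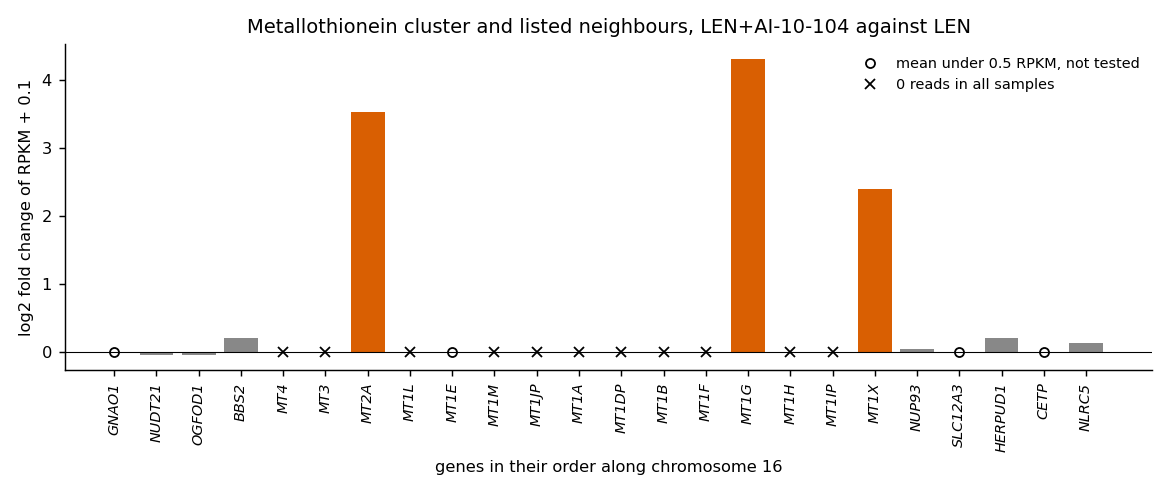
Log2 fold change of RPKM + 0.1 in LEN+AI-10-104 relative to LEN (vertical axis) for the metallothionein genes and listed neighbours in their order along chromosome 16 (horizontal axis, not to scale). Orange bars are metallothionein genes tested, grey bars neighbours, circles genes under a mean of 0.5 RPKM and crosses genes at 0 reads, and the bars of MT2A, MT1G and MT1X at 3.52, 4.31 and 2.40 stand among neighbours between -0.05 and 0.21.

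The genes whose level followed the summed metallothioneins most closely were found by Pearson's r between log2 values over the 12 samples, as a description, since these samples fall into a low and a high group. SLC30A1 came first with r = 0.987, ahead of CXCR4, a chemokine receptor, at 0.973, LOC102724908 at 0.962, RFX5, a factor of MHC class II promoters, at 0.960 and HERPUD1 at 0.954. SGK1, RCL1 and CTC1 followed at 0.949, 0.943 and 0.941. Their changes were much smaller than those of the metallothioneins, with log2 fold changes of 0.17 to 0.67 in the combination relative to LEN. For MTF1 the r with the sum was -0.06.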

How the data were processed

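Polyadenylated RNA of 12 OPM-1 samples, 3 biological replicates in each of 4 conditions, was sequenced by the authors from directional libraries. Reads were aligned to GRCh38 with STAR, and the submitters' processing notes also name FastQC, Cuffnorm and DESeq2. The deposited values are RPKM for 38478 genes beside a column of the gene lengths used, which the file header credits to featureCounts. Per sample, RPKM times kilobases added up to 1000000, and 100% of the values came out as whole reads (within 0.02 reads) when divided by the value of 1 read, which gave reads per gene and a depth of 16352548 to 31386210 per sample. Of the rows, 28 carry a number in place of a gene name and were kept. All 12 sample columns were used and 0 were left out.

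The 11241 genes averaging 0.5 RPKM or more were fitted on the scale log2(RPKM + 0.1) by limma 3.58.1 (R 4.3.3). The fit held the 12 samples with a mean for each condition and a variance trend, and p-values were adjusted by Benjamini-Hochberg over all genes tested. The log2 scale understates changes of genes near 0. A gene was called when the adjusted p was 0.05 or less and the log2 fold change 0.32 or more in size. As the deposited values are no counts, count models were not used, and limma's voom on the recovered reads was an alternative. The procedure was tested on simulated data for LEN+AI-10-104 against LEN. There 192 of 200 changed genes among 11241 were called, with 3 unchanged genes called and 0 calls in a contrast with no change. The changes given to the 200 genes were all well above the fold required, and the noise was drawn from normal distributions. High recovery was therefore likely from the start, and no recovery rate is read for genes near the fold required. Counting intervals are exact 95% intervals, conditional on the summed reads and scaled by depth (scipy 1.17.1). The chi-square per degree of freedom between replicates was 1.88 to 9.64 over 12 pairs, above the sampling noise of reads.

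Gene positions and shared sequence are from GENCODE 44 and promoters from RefSeq (GRCh38.p14). Genes named are the 6 genes, the other metallothionein rows, listed genes that were called, all tested genes of the MTF1 target and chromosome 16 lists, and the 8 genes most like the metallothionein sum, while the genes named only for values at 0 or for markers were added after their values were seen. One listed neighbour is not reported here. The genes and the lists were chosen with earlier results of these data known. Alternatives were a filter at 1 RPKM or none, a pseudocount of 1 or 0.01, median-ratio rescaling, quantile normalization, a replicate block, no variance trend, voom, the compared conditions only, no fold threshold or one of 1.5, and leaving out each sample.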

Additional observations from a re-analysis of the deposited data

Results flagged for a closer look

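The estimated effect of lenalidomide on MT2A was negative without AI-10-104 and positive with it. On the log2 scale it was -0.35 (95% interval -0.51 to -0.19) and 0.12 (95% interval -0.04 to 0.28). The second interval spans 0, so opposite directions were not shown. Every LEN sample (12.9 to 13.1 RPKM, a spread below that of counting alone) was below every DMSO sample (15.4 to 19.3 RPKM). Every LEN+AI-10-104 sample (149 to 155 RPKM) was above every AI-10-104 sample (130 to 144 RPKM). These separations were seen in 7.03% and 19% of all genes tested. The call of MT2A in LEN against DMSO did not hold under most other settings. The difference between the effects was 0.47 on the log2 scale (standard error 0.10, 95% interval 0.24 to 0.69). It was not called over the 11241 genes tested (adjusted p = 0.28 from limma), where 0 genes were called, 1621 had an unadjusted p under 0.05, and voom called 3. Without AI-10-104 replicate 2 the adjusted p for MT2A was 0.034, in a fit that called 427 genes in this direction and 130 in the other. The value contains the contrast by which the genes were chosen, and a cause was not tested.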

How the results depend on the processing

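The number of the 6 genes called was 3 in LEN+AI-10-104 against LEN (MT2A, MT1X and, through the filter described above, MT1G) and 0 in LEN+AI-10-104 against AI-10-104 under every alternative, except that MT1E made 4 in the first contrast with no filter on low values. In the second contrast MT1X passed the p threshold under some alternatives (lowest adjusted p 0.013, from voom) but not the fold required. For LEN against DMSO the count of 1 (MT2A) fell to 0 with a pseudocount of 1, no filter, quantile normalization, no variance trend, voom, the compared conditions only or a fold threshold of 1.5, and ranged from 0 to 1 over the 12 fits that each left out 1 sample, with the call kept without DMSO replicate 1 alone. The cause was not tested. No result reversed its direction where it was called. Over the alternatives the log2 fold change in LEN+AI-10-104 against LEN ran from 3.44 to 3.53 for MT2A and from 2.36 to 2.44 for MT1X, and for MT1G from 1.98 (pseudocount 1) to 6.56 (pseudocount 0.01), so that no fold is read from the fitted value of MT1G. Leaving out samples moved the ratio of the metallothionein sum in that contrast between 7.05 and 7.39. Of the listed genes called, SLC30A1 alone kept its call at a fold threshold of 1.5, where those of TSC22D3, SGK1, SLC7A11, ATP7A, CCS and DDIT4 were lost. SGK1 and DDIT4 also fell below a log2 fold change of 0.32 under other alternatives (lowest 0.29 for each). For DDIT4 in LEN+AI-10-104 against AI-10-104 the adjusted p reached 0.093 in limma. For CCS in AI-10-104 against DMSO the log2 fold change reached -0.28 and the adjusted p 0.13 in limma.

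Over all genes, the calls in LEN+AI-10-104 against LEN were 98 higher and 91 lower, 71 and 109 after median-ratio rescaling, 66 and 123 after quantile normalization, and from 22 to 279 higher and 29 to 240 lower over all alternatives. In LEN+AI-10-104 against AI-10-104 they were 355 and 53, 246 and 96 after quantile normalization, and from 83 to 1026 and 15 to 657. In LEN against DMSO they were 66 and 7, and from 18 to 110 and 2 to 17. With the replicate number as a block the counts of the 6 genes called stayed at 3, 1 and 0 in the 3 contrasts, and over all genes 123 were called higher and 95 lower in LEN+AI-10-104 against LEN. The numbers were not taken to pair the samples, since deviations of samples with the same number correlated at 0.05 on average over 18 pairs (from -0.03 to 0.16) against -0.03 over 36 pairs with different numbers. Depth limits MT1G, MT1E and MT1F, and the LEN+AI-10-104 samples were the shallowest group, with a median of 19417027 reads.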
